A study of Mus musculus with 6 samples.

Results

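A set of 9 genes that mark projection neurons of the striatum were followed in RNA from newborn mouse cortex, and all 9 were found by symbol among the 23621 genes of the deposited table. The genes are Ebf1, Isl1, Tac1, Rarb, Rxrg, Drd2, Adora2a, Penk and Ikzf1, and all 9 had enough counts to be tested among 16274 genes. Cortex of Tle4-/- null mutants (3 libraries) was set against that of wild-type littermates (3 libraries), all at postnatal day 0 and on a mixed C57BL/6J, 129S6 and CD1 background. The Tle4 protein is a transcriptional co-repressor, and the series deals with how projection neuron identities are set in the cortex. The labels do not say how the null allele was made, where the lower border of the cortex dissection lay, or which libraries came from 1 litter, so p-values measure only the spread between these samples.

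Striatal projection neurons are GABAergic cells of the ventral forebrain that lie just beneath the cortex. They form a direct pathway, which carries dopamine D1 receptors and makes substance P and dynorphin, and an indirect pathway, which carries dopamine D2 and adenosine A2a receptors and makes enkephalin. Ebf1, Isl1 and the retinoid receptors act in their development. None of the 9 genes is exclusive to the striatum: Ikzf1 is also a gene of blood and immune cells, Ebf1 of vessel-associated and meningeal cells, Isl1 of cholinergic neurons, and Penk and Tac1 of some cortical neurons.

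The libraries held 18617408 to 21632607 counts. Tle4 (chromosome 19, 14448072 to 14598051, GRCm38) had 1481, 1659 and 1664 counts in the mutants, against 3884, 3171 and 3091 in the wild types (log2 fold change -1.06, edgeR adjusted p = 0.0377). The mutants thus kept 0.480 of the wild-type level, and these counts over the whole gene do not by themselves show a null allele. Xist, the X-inactivation transcript of females, had 66194 to 79080 counts in the mutants and 11 to 37 in the wild types, while the Y-linked Ddx3y had 0 to 2 counts in the mutants and 1463, 1891 and 2 in the wild types. Wild-type replicate 3 thus had few counts of either, so its sex is not read from them, and Xist level and genotype cannot be told apart. The mitochondrial gene mt-Co1 averaged 8534 CPM in the mutants and 0.0170 CPM in the wild types, and mt-Nd4 averaged 0.0174 CPM in the mutants and 2521 CPM in the wild types, while mt-Nd1 had a log2 fold change of -0.01. Single genes of this table can thus be near 0 throughout a genotype, and the cause was not tested. The cortical glutamatergic genes Neurod2, Neurod6, Tbr1 and Emx1 were present in every library, and the 8 genes of that list summed to 2146 to 2847 CPM (counts scaled to library size by TMM) in the mutants and 2342 to 2647 CPM in the wild types. Wild-type replicate 1 was nearly without meningeal transcripts, and mutant replicate 3 held 1789 counts of Ttr, a choroid plexus transcript, against 1 to 5 in each other library.

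Every gene of the 9 had a lower mean in the mutant, with log2 fold changes (mutant over wild type) between -1.39 and -0.33, but none passed the threshold over all genes tested. The 9 genes were chosen with earlier results of these data known, so the shares of all genes set beside them are a description only. A value below 0 was found for 9 of 9, beside 51.3% of all genes tested. By edgeR's quasi-likelihood test with Benjamini-Hochberg adjustment 0 of 9 were called, beside 0.111% of all genes in either direction and 0.0614% lower in the mutant. At an unadjusted p under 0.05 there were 6 of 9 (Ebf1, Drd2, Ikzf1, Rarb, Adora2a and Rxrg), all lower in the mutant, beside 3.45% of all genes in either direction and 1.73% lower in the mutant. DESeq2's Wald test called 2 of them, Ebf1 and Drd2, beside 0.356% of all genes, and limma-voom called 0, beside 0.0799%. The median log2 fold change of the 9 was -1.05, beside -0.01 for all genes tested. Their summed level was 76.9, 57.4 and 59.6 CPM in the mutant libraries, against 124, 93.3 and 153 CPM in the wild-type libraries, a mutant to wild-type ratio of 0.524. The sums of the genotypes did not overlap. In whole tissue, fewer cells of a type and less RNA per cell cannot be told apart. The labels do not give the border of the dissection, and the part of striatal tissue taken along with the cortex in these levels was not tested.

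**Figure D1:**
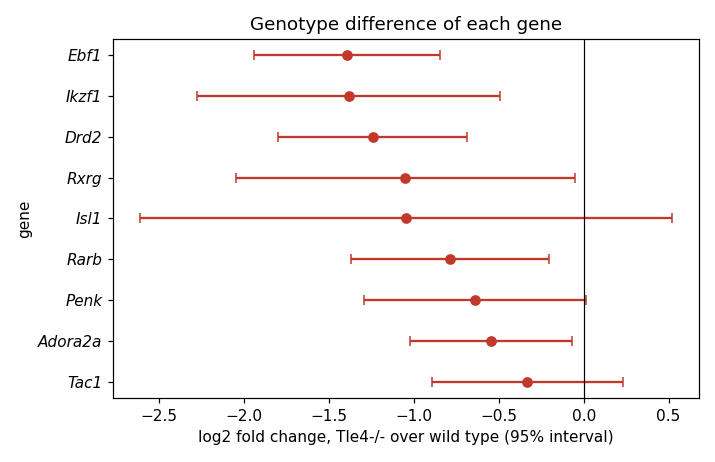
The log2 fold change of each of the 9 genes, Tle4-/- over wild type (x axis), with its 95% interval from the edgeR fit, n = 3 libraries per genotype. All 9 points lie below 0, from -1.39 for Ebf1 to -0.33 for Tac1, and the intervals of Isl1, Penk and Tac1 reach above 0.

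Set per transcript length, the levels were low. In the deposited FPKM values (scaled to transcript length and library size) the 9 genes averaged 0.301 to 3.74 in the mutants and 0.793 to 7.18 in the wild types. Rarb, Adora2a and Rxrg stood highest in the mutants, at 3.74 ± 0.789, 3.70 ± 0.365 and 3.44 ± 1.82 FPKM (SD, n = 3), and these 3 did not differ beyond their spread. Rxrg, Rarb and Adora2a were also the highest in the wild types, at 7.18 ± 2.13, 6.51 ± 2.03 and 5.47 ± 1.37 FPKM (SD, n = 3), again within their spread. Tac1, Penk and Drd2 averaged 1.77 ± 0.619, 1.64 ± 0.430 and 1.28 ± 0.0922 FPKM in the mutants and 2.25 ± 0.179, 2.59 ± 0.737 and 3.05 ± 0.423 FPKM in the wild types. Ebf1 averaged 0.778 ± 0.00696 FPKM in the mutants and 2.06 ± 0.679 FPKM in the wild types, where it did not differ from Tac1 and Penk beyond the spread. Isl1 averaged 0.642 ± 0.532 FPKM in the mutants and 1.34 ± 0.797 FPKM in the wild types. Ikzf1 had the lowest mean in each genotype, 0.301 ± 0.0695 FPKM in the mutants and 0.793 ± 0.429 FPKM in the wild types, within the spread of Isl1.

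Ebf1, a transcription factor needed for direct pathway neurons to mature, had the smallest p of the 9. Ebf1 (ENSMUSG00000057098) is found on chromosome 11 from 44617317 to 45008091. Expression was 9.07, 9.21 and 9.23 CPM in the mutant libraries, against 24.9, 15.6 and 32.0 CPM in the wild-type libraries. The mutants were nearly equal and all below the wild types, among which replicate 2 was low. In the fit the log2 fold change was -1.39 (SE 0.24, 95% interval -1.94 to -0.84, edgeR adjusted p = 0.134). The adjusted p was 4.51e-05 by DESeq2, and by edgeR without wild-type replicate 2 it was 0.0227. It was 0.428 by limma-voom and 0.294 by edgeR with a replicate block. With each other library left out in turn, the edgeR adjusted p ran from 0.336 to 0.518. The authors' deposited table gives Ebf1 an adjusted p of 0.000637.

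Isl1, a LIM-homeodomain factor of direct pathway neurons and of cholinergic neurons, had the widest spread between mutant libraries. It spans 116298281 to 116309689 on chromosome 13. Its level was 1.64, 1.99 and 6.83 CPM in the mutant libraries, against 4.23, 5.25 and 12.1 CPM in the wild-type libraries. Mutant replicate 3 exceeded 2 of the wild types, so the genotypes overlapped. On the log2 scale the difference was -1.05 (SE 0.66, 95% interval -2.62 to 0.52, edgeR unadjusted p = 0.156), and it was -1.99 without mutant replicate 3 and -0.45 without wild-type replicate 3. With the other libraries left out in turn it ran from -1.32 to -0.71. Among cholinergic genes, Lhx8, a LIM-homeodomain factor that acts with Isl1 in forebrain cholinergic neurons, averaged 0.521 CPM in the mutants and 1.47 CPM in the wild types (log2 fold change -1.49, edgeR adjusted p = 0.551).

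Tac1, the precursor of substance P, differed least. It spans 7554879 to 7565834 on chromosome 6 and stood at 11.5, 6.44 and 6.62 CPM in the mutant libraries, against 10.9, 9.11 and 10.9 CPM in the wild-type libraries. Mutant replicate 1 was above every wild type. Its fitted log2 fold change was -0.33 (SE 0.25, 95% interval -0.89 to 0.23), an interval that does not hold the value of Ebf1. Without mutant replicate 1 the value for Tac1 was -0.65, without mutant replicate 2 -0.19 and without mutant replicate 3 -0.20.

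The retinoid receptors Rarb and Rxrg, which pair as a dimer on retinoic acid response elements and are rich in striatum, were both lower without being called. Rarb spans 16430842 to 16575472 on chromosome 14. Expression was 13.7, 11.7 and 8.92 CPM in the mutant libraries, against 19.7, 13.4 and 26.1 CPM in the wild-type libraries. Mutant replicate 1 was just above wild-type replicate 2, so the genotypes overlapped. The log2 fold change of Rarb was -0.79 (SE 0.26, 95% interval -1.37 to -0.21, edgeR adjusted p = 0.9996, unadjusted 0.0135).

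Rxrg spans 167598384 to 167639623 on chromosome 1. Expression was 22.4, 11.9 and 7.98 CPM in the mutant libraries, against 36.3, 18.8 and 32.9 CPM in the wild-type libraries. Its spread within a genotype was wide, 2.81-fold between the highest and lowest mutant library and 1.93-fold between the highest and lowest wild-type library. The log2 fold change of Rxrg was -1.05 (SE 0.42, 95% interval -2.05 to -0.05, edgeR unadjusted p = 0.0421).

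Rarb is known as a gene that retinoic acid induces through an element in its own promoter, and its promoter window is shown for that reason. A window of Rxrg is shown beside it. The sequences are from RefSeq, on GRCm38.p6, 300 bases each, from 250 bases before the transcript start to 50 after it, written 5′ to 3′ on the gene's strand. The Rarb window is chr14:16575427-16575726 on the minus strand, and its capitals mark a direct repeat, GTTCAC and again GTTCAC after any 5 bases, which begins at position -52, position 0 being the first transcribed base. The Rxrg window is chr1:167618015-167618314 on the plus strand, at the downstream of its listed starts, and its capitals mark the hexamer AGGTCA at position -88. It is the Rxrg window that held this hexamer. The window at the upstream start, chr1:167598112-167598411, held 0 matches to it and is not shown.
Rarb: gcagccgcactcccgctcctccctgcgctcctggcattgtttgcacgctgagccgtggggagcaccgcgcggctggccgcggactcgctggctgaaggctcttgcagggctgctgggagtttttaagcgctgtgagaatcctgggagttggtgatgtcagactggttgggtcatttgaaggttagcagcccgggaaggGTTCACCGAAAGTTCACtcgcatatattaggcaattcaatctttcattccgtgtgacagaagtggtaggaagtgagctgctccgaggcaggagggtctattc
Rxrg: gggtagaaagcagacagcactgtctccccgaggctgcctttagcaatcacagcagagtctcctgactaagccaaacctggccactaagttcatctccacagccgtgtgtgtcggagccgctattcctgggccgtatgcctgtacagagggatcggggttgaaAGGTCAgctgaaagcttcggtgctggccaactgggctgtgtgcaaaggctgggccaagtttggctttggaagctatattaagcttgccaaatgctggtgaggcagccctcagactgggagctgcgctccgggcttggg
The direct repeat, a pattern chosen after the sequence was seen, was found on either strand in 2 of 32851 promoter windows (0.00609%), of which the Rarb window was 1. The hexamer AGGTCA, the core of many nuclear receptor elements, was in 16.3% of all windows and in 1 of the 10 windows that 7 of the genes had. An EBF pattern, TCCC and GGGA with any 2 bases between them, was in none of the 10, beside 0.904% of all windows. The hexamer TGGGAA, an Ikaros core, was in 2 of the 10, 1 each of Rxrg and Ebf1, beside 25.6% of all windows. The searched patterns did not overlap in these windows, and a match is a description of the letters only.

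Of the other retinoid genes, 14 of 16 were tested, 0 were called by edgeR in either direction, and 1 was lower and 0 higher at an unadjusted p under 0.05. That gene was Crabp1, a cytoplasmic retinoic acid binding protein, at 5.01, 5.23 and 9.23 CPM in the mutants, against 9.52, 13.4 and 12.4 CPM in the wild types (log2 fold change -0.86). The receptors Rara, Rarg, Rxra and Rxrb had log2 fold changes of -0.04, -0.22, 0.09 and -0.02. The list median was -0.04.

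Drd2, the inhibitory dopamine receptor of indirect pathway neurons, was lower in every mutant library. It spans 49340662 to 49407214 on chromosome 9. Expression was 2.15, 1.88 and 1.93 CPM in the mutant libraries, against 4.94, 3.90 and 5.32 CPM in the wild-type libraries, from 36 to 46 counts in each mutant and 87 to 99 in each wild type. All mutants were below all wild types. Its log2 fold change was -1.24 (SE 0.25, 95% interval -1.80 to -0.69, edgeR adjusted p = 0.255). The adjusted p by DESeq2 was 0.0231, and the authors' deposited table gives Drd2 an adjusted p of 0.0462. It was 0.333 by limma-voom and 0.588 by edgeR with a replicate block. With 1 library left out in turn, the edgeR adjusted p ran from 0.220 to 0.906.

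Adora2a, the adenosine receptor that opposes Drd2 in the same neurons, showed a smaller difference. It spans 75316943 to 75334788 on chromosome 10. Expression was 9.22, 8.58 and 10.5 CPM in the mutant libraries, against 10.1, 15.7 and 15.5 CPM in the wild-type libraries. Wild-type replicate 1 lay within the mutant range. The log2 fold change of Adora2a was -0.55 (SE 0.21, 95% interval -1.02 to -0.07, edgeR unadjusted p = 0.0287).

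Penk, the enkephalin precursor of the indirect pathway, spans 4133531 to 4138819 on chromosome 4. Expression was 4.58, 2.72 and 3.44 CPM in the mutant libraries, against 5.86, 6.96 and 3.98 CPM in the wild-type libraries. Mutant replicate 1 was above wild-type replicate 3. The log2 fold change of Penk was -0.64 (SE 0.29, 95% interval -1.297 to 0.012, edgeR unadjusted p = 0.0534).

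Ikzf1, the Ikaros zinc-finger factor, acts in enkephalin-making striatal neurons and in lymphoid cells. It spans 11685003 to 11772926 on chromosome 11, and the overlapping Gm12000 and Gm11999 had at most 3 counts in a library. Expression was 2.76, 2.93 and 4.17 CPM in the mutant libraries, against 7.49, 4.58 and 13.8 CPM in the wild-type libraries. The genotypes did not overlap, though the wild types spanned a 3.01-fold range. In the fit the log2 fold change was -1.39 (SE 0.39, 95% interval -2.28 to -0.49, edgeR adjusted p = 0.9996, unadjusted 0.00675), and -0.87 without wild-type replicate 3. With Ebf1 and Drd2 this made 3 of 9 genes with every mutant below every wild type, beside 3.75% of all genes tested, and 7.93% when either direction counts.

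**Figure D2:**
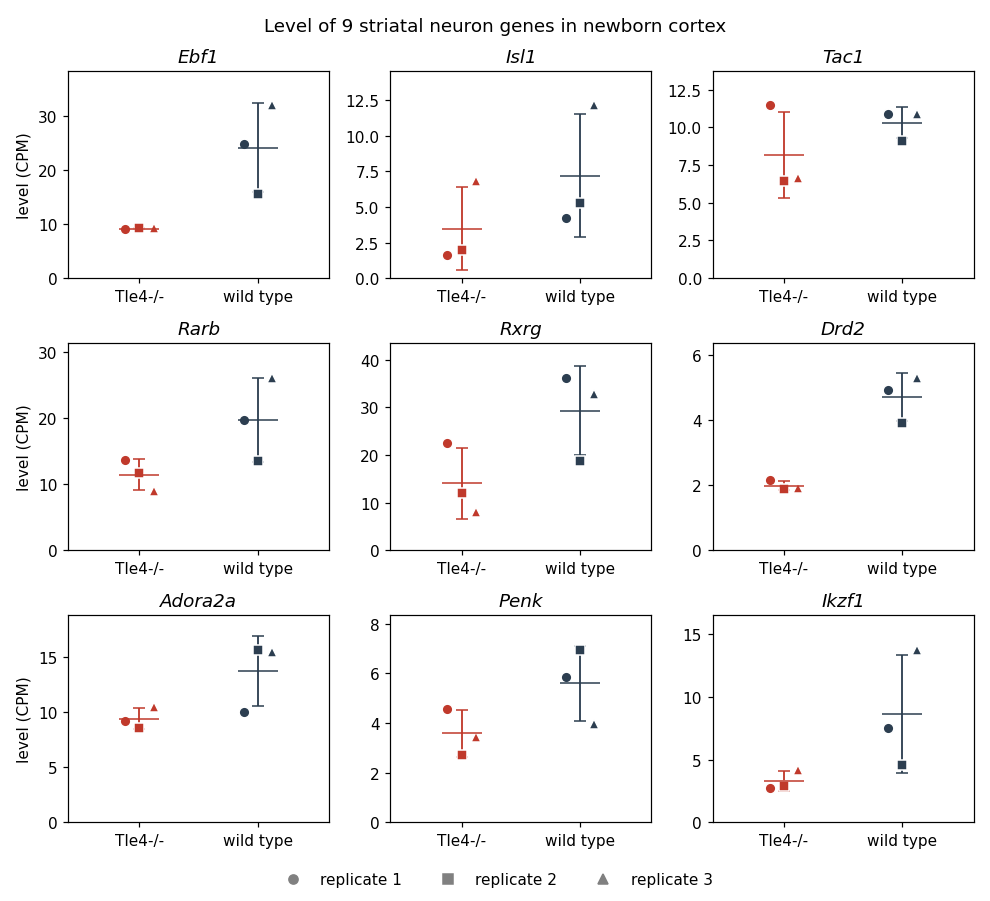
Level of each of the 9 genes in CPM (y axis, from 0) in 3 Tle4-/- and 3 wild-type libraries, with a marker shape for each replicate number, a bar at the mean and whiskers of 1 SD. Ebf1, Drd2 and Ikzf1 have all mutants below all wild types, and Tac1 has mutant replicate 1 at the top of the range.

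Whether the 9 genes moved together from library to library was read from their order within each genotype, which leaves the genotype difference out. Among the wild types, 5 of 9 genes (Ebf1, Tac1, Rarb, Drd2 and Ikzf1) had the order replicate 3, 1, 2 from high to low, an order held by 13.7% of all genes tested. Replicate 3 was the highest wild type for 6 of 9 and replicate 2 the lowest for 6 of 9, beside 32.2% and 29.8% of all genes. The 9 genes are not independent of each other, and no test was made on these counts. Penk ran the opposite way, highest in wild-type replicate 2 and lowest in replicate 3, and Adora2a was lowest in replicate 1. For Tac1 the levels in wild-type replicates 1 and 3 were nearly equal, both 10.9 CPM.

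Among the mutants no order was shared by more than 3 genes. Replicate 1 was the highest for 5 of 9 (Tac1, Rarb, Rxrg, Drd2 and Penk), beside 36.5% of all genes. Replicate 3 was the highest for the other 4 (Ebf1, Isl1, Adora2a and Ikzf1), beside 30.0%. Rxrg and Isl1 went furthest apart: from its genotype mean on the log2 CPM scale, Rxrg stood at 0.79 in mutant replicate 1 and -0.68 in mutant replicate 3, and Isl1 at -0.75 and 1.24 in the same libraries.

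**Figure D3:**
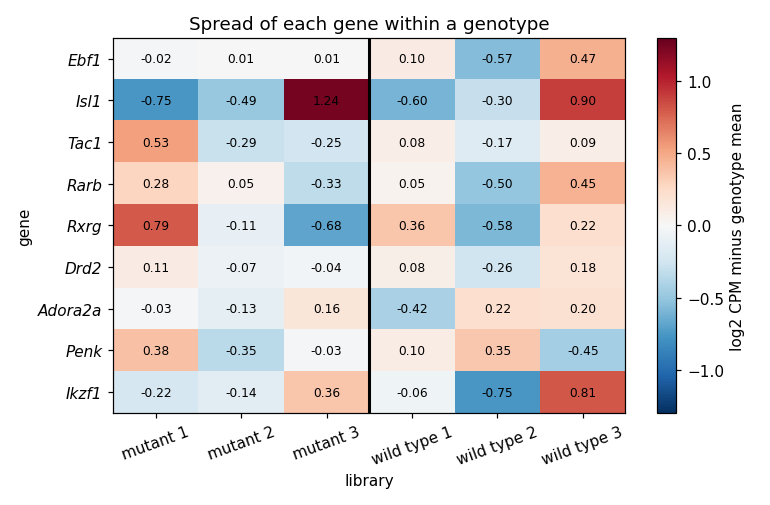
Deviation of each gene's log2 CPM from the mean of its genotype (colour and printed value) in each library. Wild-type replicate 2 is below 0 for 7 of the 9 genes and replicate 3 above 0 for 8, while in mutant replicate 3 Isl1 stands at 1.24 and Rxrg at -0.68.

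The make-up of the 9 genes' pooled counts is given as each gene's share per library. The 9 genes together had 1645, 1096 and 1143 counts in the mutant libraries, against 2441, 2078 and 2840 in the wild-type libraries. Isl1 took 2.13% of them in mutant replicate 1 (exact binomial 95% interval 1.49 to 2.95) and 11.5% in mutant replicate 3 (9.67 to 13.5). Rxrg took 29.1% in mutant replicate 1 (26.9 to 31.4) and 13.4% in mutant replicate 3 (11.5 to 15.5). The intervals did not overlap for either gene. This sets these libraries only against the counting error of independent reads, and not against the spread between animals. Both genes were picked as furthest apart. Drd2 kept to 2.80% to 3.28% in the mutants and 3.49% to 4.19% in the wild types, and Rarb reached 20.3% at most in the mutants and 17.1% in the wild types. Tac1 took 11.1% to 14.9% in the mutants and 7.15% to 9.77% in the wild types, so its share was higher in every mutant, though the intervals of the nearest libraries overlapped. Ebf1 took 11.8% to 16.1% in the mutants and 16.7% to 21.0% in the wild types. These intervals treat each read as independent. Reads without molecular identifiers need not be independent molecules, so the intervals may be too narrow even for counting error.

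**Figure D4:**
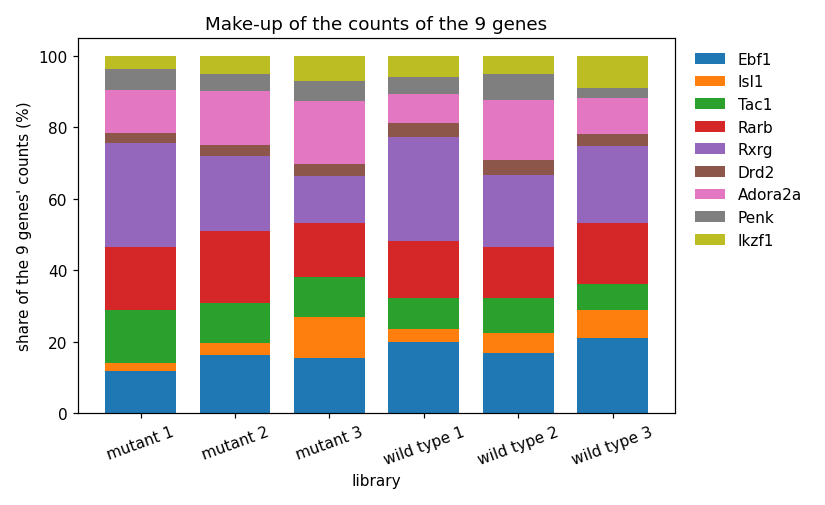
Share of each gene in the summed counts of the 9 genes (y axis, percent) in each of the 6 libraries, Tle4-/- on the left. The Isl1 band is widest in mutant replicate 3 (11.5%) and the Rxrg band is narrowest there (13.4%).

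Other striatal genes were read from lists of 14 genes shared by both pathways, 5 of the direct pathway and 4 of the indirect pathway. Of the 14 shared genes, 1 was called lower by edgeR, 3 were lower and 0 higher at an unadjusted p under 0.05, and the median log2 fold change was -0.07. Zfp503, a zinc-finger factor of striatal precursors, averaged 6.46 ± 0.961 CPM in the mutants and 9.79 ± 1.71 CPM in the wild types (log2 fold change -0.60). Meis2, a homeodomain factor also found in cortex, had a log2 fold change of -0.25, and Pde10a, a striatal phosphodiesterase, of -0.43 (edgeR unadjusted p = 0.069). Among genes of striatal signalling, Ppp1r1b (which encodes DARPP-32) had a log2 fold change of -0.05, Gnal of -0.07, Adcy5 of 0.07 and Rgs9 of -0.26. The summed level of the 14 was 1519 to 1673 CPM in the mutants and 1617 to 1854 CPM in the wild types, a ratio of 0.907.

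Of the 5 direct pathway genes, 0 were called by edgeR, and 2 were lower and 0 higher at an unadjusted p under 0.05. Pdyn, the dynorphin precursor, stood at 2.99, 1.26 and 1.304 CPM in the mutants, against 3.67, 3.82 and 3.06 CPM in the wild types (log2 fold change -0.92). Slc35d3, which takes part in D1 receptor trafficking, had a log2 fold change of -0.88, and Zfp521, a zinc-finger gene, of -0.39. Drd1, the D1 receptor, which deep-layer cortical neurons also make, stood at 26.6, 23.9 and 12.7 CPM in the mutants, against 19.1, 15.3 and 28.3 CPM in the wild types (log2 fold change 0.01, 95% interval -0.73 to 0.75). Drd1 was thus lowest in mutant replicate 3, as Rxrg was, where Isl1 was highest. Among the wild types Drd1 had the order replicate 3, 1, 2 from high to low, as Ebf1, Tac1, Rarb, Drd2 and Ikzf1 had.

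Of the 4 indirect pathway genes 3 were tested and 0 were called by edgeR. Sp9, a zinc-finger factor of indirect pathway neurons and interneurons, stood at 18.6, 21.6 and 25.1 CPM in the mutants, against 28.8, 27.4 and 40.4 CPM in the wild types (log2 fold change -0.56, edgeR unadjusted p = 0.0126). Gpr6, an orphan receptor of these neurons, had a log2 fold change of -0.94 at 0.261 to 1.54 CPM in the mutants and 1.57 to 2.58 CPM in the wild types, and Six3 of -0.10. Sp9 overlaps Cir1 in the table, and without strand information reads could be shared.

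Among 8 genes of ganglionic eminence progenitors and their daughters, 0 were called and 2 were lower at an unadjusted p under 0.05, Dlx6 (log2 fold change -0.98) and Dlx5 (-0.42). Dlx6 overlaps Dlx6os1, which had 735 to 981 counts in a library, so its count is uncertain. Dlx1 and Dlx2 had log2 fold changes of 0.04 and -0.16. Of 7 other dopamine and adenosine receptors 4 were tested and 0 called, with Adora1 at -0.22. Of 10 other opioid and tachykinin genes 7 were tested and 0 called, with Pdyn the only 1 at an unadjusted p under 0.05. Of 8 relatives of Ebf1, Ikzf1 and Isl1, 6 were tested, all 6 lay below 0 and 0 were called, with Ebf2 lowest at -0.96 (0.680 to 1.10 CPM in the mutants and 1.29 to 1.88 CPM in the wild types).

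Summed markers of microglia, of mural and endothelial cells and of meninges had the wild-type order replicate 2, 3, 1 from high to low. Among the 9 genes only Adora2a had it, beside 16.1% of all genes tested and 21.3% of the 4606 within the range of the 9. Single genes of these lists could differ, as Abcc9 did at 22.6, 21.2 and 23.0 CPM in the wild types. The cortical glutamatergic list summed to 2432, 2342 and 2647 CPM in the wild types, the order 3, 1, 2 shared by 5 of the 9 genes. The interneuron list summed to 808, 769.9 and 770.1 CPM there, the order 1, 3, 2. In the wild types the direct pathway list summed to 51.4, 44.6 and 57.7 CPM, the order 3, 1, 2. The indirect pathway list had the same order, at 35.1, 33.2 and 47.5 CPM. The list shared by both pathways had the order 1, 3, 2, at 1854, 1617 and 1752 CPM. In mutant replicate 3 the direct pathway list was the lowest of the mutants (31.1 CPM) and the indirect pathway list the highest (29.7 CPM). The 10 microglial genes summed to 37.9, 51.5 and 41.7 CPM in the mutants, against 34.1, 71.1 and 38.0 CPM in the wild types. They were highest in wild-type replicate 2. All 10 were tested, 7 lay below 0, none was at 0 counts in a library, and 0 were called by edgeR, with none at an unadjusted p under 0.05. The 11 mural and endothelial genes summed to 298 to 377 CPM in the mutants and 243 to 413 CPM in the wild types, 1 of 11 lay below 0, and they too were highest in wild-type replicate 2. The 9 meningeal genes summed to 201, 420 and 244 CPM in the mutants, against 14.7, 521 and 184 CPM in the wild types, with Aldh1a2 at 0 counts in wild-type replicate 1. Adora2a and Isl1 were the genes of the 9 that were lowest in that library among the wild types. In wild-type replicate 2 Adora2a and Penk were the highest of the wild types, and Ebf1, Tac1, Rarb, Rxrg, Drd2 and Ikzf1 the lowest. The part of microglial, vascular and meningeal cells in the levels of any of the 9 genes was not tested.

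The 15 interneuron genes summed to 729 to 773 CPM in the mutants and 770 to 808 CPM in the wild types, a ratio of 0.955, and 0 were called by edgeR. Slc32a1, the vesicular GABA transporter shared by interneurons and striatal neurons, was the only 1 at an unadjusted p under 0.05 (log2 fold change -0.36). Gad2, which makes GABA, had -0.34, Vip 1.12 and Adarb2 0.18. The 7 cholinergic and basal forebrain genes summed to 5.15 to 6.21 CPM in the mutants and 7.54 to 8.35 CPM in the wild types. Of the 4 of these tested, 3 lay below 0 and 0 were called. Lists for septum and olfactory bulb, thalamus and hippocampus, and choroid plexus had 5, 4 and 3 genes tested, with 0 called and none at an unadjusted p under 0.05.

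**Figure D5:**
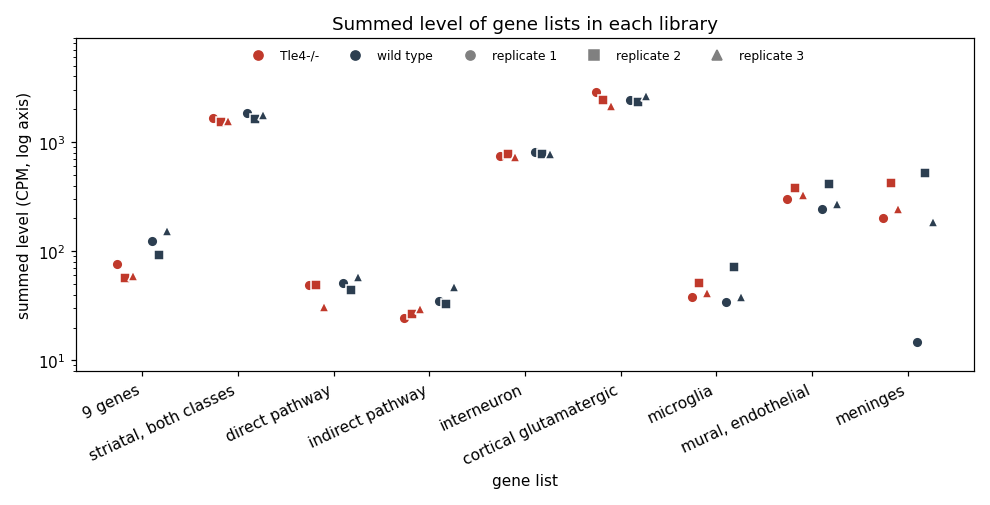
Summed CPM (log axis) of the 9 genes and of 8 marker lists in each library, Tle4-/- left of wild type, with a marker shape for each replicate number. The 9 genes and the indirect pathway list have all mutants below all wild types, and the meningeal list has wild-type replicate 1 at 14.7 CPM.

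The genes whose pattern over the 6 libraries was nearest to the mean pattern of the 9 were sought by the root mean square difference of log2 deviations, among 13241 other genes at 1 CPM or more. They included Lypd1, a small membrane-anchored protein (0.153 log2 units), Foxp2, a forkhead factor of striatal and deep-layer cortical neurons (0.158), Ngef, a guanine exchange factor (0.171), Ankrd53 (0.174) and Kcnab1, a potassium channel subunit (0.178). By the same measure the 9 genes themselves lay 0.163 (Drd2) to 0.711 (Isl1) from their own mean. Lypd1 averaged 20.7 ± 2.77 CPM in the mutants and 38.3 ± 4.23 CPM in the wild types (SD, n = 3 each; log2 fold change -0.89). Foxp2 averaged 40.9 ± 1.67 CPM in the mutants and 68.7 ± 12.5 CPM in the wild types (log2 fold change -0.75). These genes were chosen for their likeness over the same libraries, so their lower level in the mutants is a description. Ankrd53 overlaps 1700124L16Rik, which had 21 to 43 counts in a library, so its count is uncertain, and the overlapping genes of Lypd1, Ngef and Kcnab1 had at most 18 counts.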

How the data were processed

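Per the file headers, the authors deposited whole-number gene counts and FPKM values for each library in 1 table, with mean FPKM by genotype and with p-values and q-values (adjusted p-values) from their own comparison. HISAT2 2.0.4, StringTie, edgeR and the builds mm10 and GRCm38.p4 appear in the submitters' processing notes. The counting program, annotation release and strand setting are not stated there. Coordinates are those of the table, on GRCm38.

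Counts were used as deposited, in edgeR 4.0.16 (R 4.3.3), with filterByExpr, TMM scaling and a robust quasi-likelihood fit of mutant over wild type on 16274 genes, Benjamini-Hochberg adjusted at 0.05, and tested on simulated data. Standard errors were obtained by dividing each absolute fold change (log2) by the root of its F value. Log2 CPM used a prior count of 2. Lists were described by counts and medians. FPKM served to compare levels between genes and, in a comparison added after seeing the data, the order of libraries within a genotype. Alternatives used DESeq2 1.42.0 and limma 3.58.1.

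The 9 genes, the lists and the naming rule were chosen with earlier results of these data known. The rule takes the 9 genes, Tle4, up to 4 genes per list by smallest p and the 6 genes nearest in pattern. Some results it takes are not reported here, and other genes were named after their values were seen.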

Additional observations from a re-analysis of the deposited data

How the results depend on the processing

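All 9 genes kept a negative log2 fold change under each alternative fit. The count called by edgeR, 0 of 9, became 2 by the DESeq2 Wald test (Ebf1 and Drd2) and 1 without wild-type replicate 2 (Ebf1, adjusted p = 0.0227), and leaving out 1 library at a time it ran from 0 to 1. Over those 6 fits the genes lower at an unadjusted p under 0.05 ran from 4 to 7 of 9, the median log2 fold change from -1.23 to -0.77, and the ratio of summed CPM from 0.467 to 0.594. Over all genes, 18 were called, against 58 by the DESeq2 Wald test, 10 without X, Y and mitochondrial genes, and 8 to 19 with 1 library left out. The cause of these shifts was not tested.

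Replicate numbers were not taken to pair the samples. Deviations of same-numbered libraries correlated at -0.06, 0.10 and -0.02 across genes. Mutant replicate 2 correlated best with its own number, and mutant replicates 1 and 3 did not. The deviations are centred within 3 libraries of a genotype, so these values cannot show whether litters were shared by number. With a replicate block 9 genes were called over the table, 0 of the 9 genes, and 7 of these were lower at an unadjusted p under 0.05, beside 3.09% of all genes in either direction. The wild-type order shared by 5 genes was also shared by 5 with DESeq2 size factors and in the deposited FPKM, comparisons added after seeing the data. Drd2 rests on 36 to 99 counts a library, which limits its precision.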
